A study of Homo sapiens with 18 samples.

Results

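The 10 genes described here encode the proteins that MLL fusions work with on chromatin: MEN1, PSIP1, DOT1L, MLLT1, MLLT3, MLLT10, AFF1, AFF4, ELL and CDK9. They were chosen by name, as the menin, LEDGF, DOT1L and elongation partners of MLL, and each has 1 row among the 23713 rows of the table. The RNA came from MOLM-13 cells, an established human line of acute monocytic leukaemia that carries a fusion of MLL (KMT2A) with MLLT3. The labels put 18 samples into 6 groups of 3: the solvent DMSO, IACS-9571 or dTRIM24, each at 4 h or 24 h. IACS-9571 is a ligand of the bromodomains of TRIM24 and BRPF1, and dTRIM24 couples such a ligand to a ligand of the VHL ubiquitin ligase. The labels name no genotype other than the line and no dose.

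The authors' table gives 1 mean per gene and group, in FPKM (read fragments scaled by transcript length and, by definition, by the size of the library). Single libraries were not analysed here. Values therefore carry no replicate error, no difference could be tested, and depth is unknown. Column totals lay between 771830 and 1058351 FPKM, while the medians of the spike-ins used lay between 29.7 and 31.7 FPKM. Whether the columns had already been scaled to the spike-ins was not tested. The 25 ERCC spike-ins (RNAs added in known amounts) with at least 5 FPKM in each group give a rough scale: their log2 differences had an SD of 0.11 to 0.22 over the 9 comparisons. All 10 markers listed for this line reached 1 FPKM in some group, with a summed level of 581 to 828 FPKM. None of 4 T cell and none of 4 erythroid markers did, and 1 of 4 B cell (PAX5) and 1 of 4 epithelial markers (KRT8) did, with sums of 4.17 to 6.35 FPKM and 2.28 to 2.97 FPKM. Their part in the results was not tested. In whole-culture RNA, fewer cells with a transcript and less of it per cell cannot be told apart.

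MLL is a histone methyltransferase of HOX and other developmental genes. In leukaemia, translocations replace its C-terminal part by a partner protein, most often one from the machinery that releases paused RNA polymerase II. Menin and LEDGF tether the retained MLL part to chromatin. The partners bring either DOT1L, which methylates histone H3 within the nucleosome core, or the super elongation complex with the kinase CDK9. In MOLM-13 the 3' part of MLLT3 is transcribed within the fusion too, so reads of MLLT3 can come from the fusion and from the intact gene, and the table does not separate them.

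All 10 genes were expressed in every group, with no value below 1 FPKM. FPKM are scaled by transcript length, so levels can be set beside each other. PSIP1 was highest in each of the 6 groups, MLLT3 lowest, AFF4 in ninth and ELL in eighth place. By mean over the groups the order was PSIP1 (51.7 FPKM), AFF1 (26.0 FPKM), MLLT1 (25.5 FPKM), MLLT10 (18.6 FPKM), DOT1L (16.5 FPKM), MEN1 (14.6 FPKM), CDK9 (14.4 FPKM), ELL (7.21 FPKM), AFF4 (5.67 FPKM) and MLLT3 (4.01 FPKM). The ranges over the 6 groups of neighbours in this order overlap, except between PSIP1 and AFF1, between CDK9 and ELL, and between AFF4 and MLLT3. AFF1 was above MLLT1 in 3 of the 6 groups only.

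**Figure D1:**
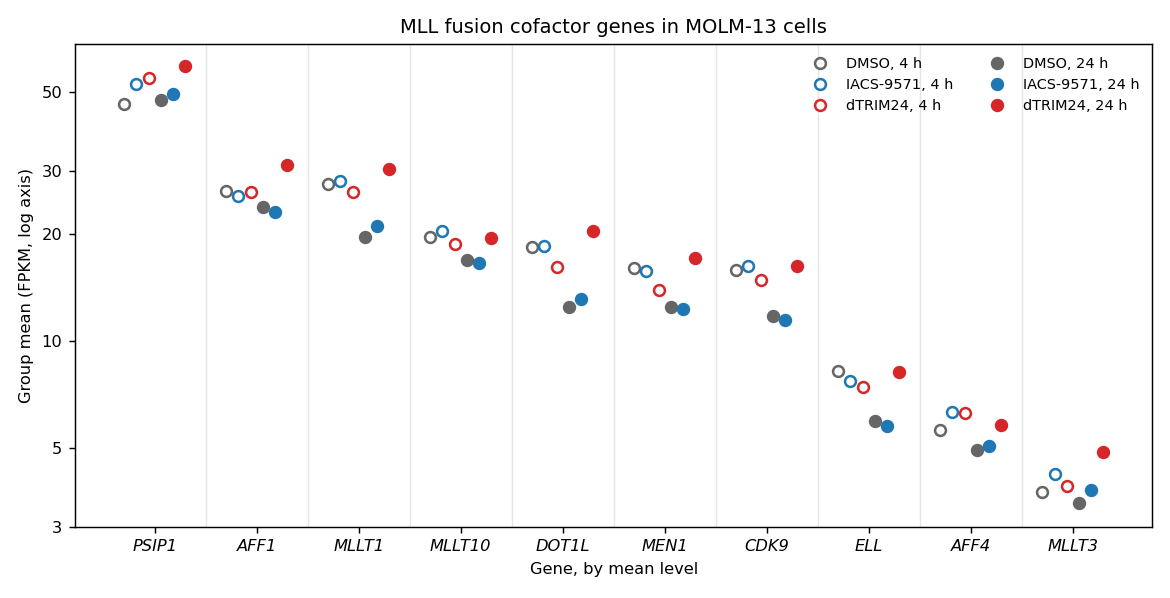
Group means of the 10 genes in FPKM on a log axis. Each point is 1 group mean without an error, open at 4 h and filled at 24 h. In the genes other than PSIP1 and MLLT3 the filled grey and blue points (DMSO and IACS-9571 at 24 h) are the lowest pair, and dTRIM24 at 24 h lies above both in all 10 genes as deposited (above DMSO in 8 and IACS-9571 in 6 with centred columns).

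The tethering factors were the first pair. MEN1 encodes menin, the scaffold that holds the N-terminal part of MLL. Its levels at 4 h were 16.1 (DMSO), 15.7 (IACS-9571) and 13.9 FPKM (dTRIM24). At 24 h they were 12.4 (DMSO), 12.3 (IACS-9571) and 17.2 FPKM (dTRIM24). Thus dTRIM24 was the lowest group at 4 h and the highest at 24 h. The same held for DOT1L, MLLT1, MLLT10, ELL and CDK9. Of the 11051 genes with at least 1 FPKM in some group, 96.8% lay above DMSO with dTRIM24 at 24 h. PSIP1 encodes LEDGF, which reads methylated histone H3 and bridges menin and chromatin. Its levels at 4 h were 46.4 (DMSO), 52.8 (IACS-9571) and 54.9 FPKM (dTRIM24), and at 24 h 47.6, 49.3 and 59.4 FPKM in the same order. PSIP1 was the 1 gene of the 10 whose DMSO level was not lower at 24 h than at 4 h. Both compounds stood above DMSO at both times for PSIP1, and for MLLT3 and AFF4 as well.

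DOT1L, the histone H3 methyltransferase, stood at 18.3 (DMSO), 18.5 (IACS-9571) and 16.2 FPKM (dTRIM24) after 4 h. After 24 h the values were 12.4 (DMSO), 13.1 (IACS-9571) and 20.4 FPKM (dTRIM24). Its highest group was 1.64 times its lowest, the widest span of the 10 genes. MLLT10 (AF10) is the cofactor that DOT1L needs for its higher methylation states. It had 19.6, 20.4 and 18.8 FPKM at 4 h and 16.8, 16.5 and 19.4 FPKM at 24 h, in the order DMSO, IACS-9571, dTRIM24. Its span of 1.23 times was the narrowest, so the 2 transcripts did not keep 1 proportion over the groups as deposited. The DOT1L transcript is 62.7% GC and that of MLLT10 43.9%. Their log2 differences in DMSO between 24 h and 4 h were -0.52 and -0.20. With a cubic trend on GC content taken out they were -0.08 and -0.05. For dTRIM24 against DMSO at 24 h, 0.67 and 0.20 became 0.23 and -0.01. The part of GC content in the spans was not tested.

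MLLT1 (ENL) and MLLT3 (AF9) are paralogs with a YEATS domain, which binds acylated histone lysines, and a C-terminal part that recruits either DOT1L or the elongation complex. MLLT1 levels were 27.6 (DMSO), 28.2 (IACS-9571) and 26.2 FPKM (dTRIM24) at 4 h, and 19.6, 21.1 and 30.5 FPKM at 24 h. MLLT3 had 3.76, 4.23 and 3.90 FPKM at 4 h and 3.50, 3.81 and 4.88 FPKM at 24 h in the same order. For both, and for DOT1L, dTRIM24 at 24 h was the highest and DMSO at 24 h the lowest of the 6 groups. Among genes with at least 1 FPKM in some group, 34.5% were highest in dTRIM24 at 24 h. In DMSO at 24 h 40.5% were lowest. The span was 1.56 times for MLLT1 and 1.39 times for MLLT3.

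The 4 genes of the elongation complex split in level. AFF1 (AF4) and AFF4 encode the scaffolds that hold the complex together. AFF1 had 26.3, 25.6 and 26.2 FPKM at 4 h and 23.8, 23.0 and 31.2 FPKM at 24 h, in the order DMSO, IACS-9571, dTRIM24. AFF4 had 5.61, 6.32 and 6.28 FPKM at 4 h and 4.92, 5.07 and 5.81 FPKM at 24 h. With dTRIM24 AFF1 was thus higher at 24 h than at 4 h, while AFF4 was not. ELL, a factor that speeds up RNA polymerase II, had 8.23, 7.73 and 7.40 FPKM at 4 h and 5.95, 5.76 and 8.18 FPKM at 24 h. CDK9, the kinase of P-TEFb that phosphorylates the polymerase and its pausing factors, had 15.8, 16.2 and 14.8 FPKM at 4 h and 11.7, 11.5 and 16.2 FPKM at 24 h. In all 4 genes the DMSO and IACS-9571 levels at 24 h lay below all 4 other groups, as in MEN1, DOT1L, MLLT1 and MLLT10. Of the 11051 genes with at least 1 FPKM in some group, 40.5% were lowest in DMSO at 24 h. Another 55.4% were lowest in IACS-9571 at 24 h.

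None of the 90 differences (10 genes in 9 comparisons) reached 2-fold, a difference of 1 in log2(FPKM + 1), and the largest was 0.67. Comparisons were made over 11051 genes with at least 1 FPKM in some group. The first comparison asks what the bromodomain ligand does early. With IACS-9571 at 4 h, 0 of 10 genes were past 2-fold, beside 0.290% of all kept genes. The median of the 10 was 0.03, and that of all kept genes 0.00. Of the 10, 7 lay above DMSO and 3 below (3 and 7 on a scale set by the spike-ins), and 50.1% of all kept genes lay above. PSIP1 stood highest at 0.18, followed by AFF4 at 0.15 and MLLT3 at 0.13, and ELL lowest at -0.08. The spike-in SD here was 0.11.

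With dTRIM24 at 4 h, 0 of 10 genes were past 2-fold, beside 0.688% of all kept genes. The median of the 10 was -0.06, against -0.01 for all kept genes, with 3 above DMSO and 7 below (52.2% of all kept genes below). PSIP1 was again at the top with 0.24, above 96.1% of kept genes, and AFF4 followed with 0.14. MEN1 at -0.20, DOT1L at -0.17 and ELL at -0.14 were the lowest. These 5 differences lay between 0.65 and 1.1 times the spike-in SD of 0.21.

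The direct comparison of the compounds at 4 h asks what the VHL part of dTRIM24 adds, at the same time but at doses not known here. Again 0 of 10 genes were past 2-fold, beside 0.597% of all kept genes. With dTRIM24 8 of the 10 lay below IACS-9571 (57.5% of all kept genes did), with a median of -0.10 against -0.02 for all. On a scale set by the spike-ins 6 of the 10 lay below while 66.5% of all kept genes lay above, with medians of -0.02 and 0.05. DOT1L was lowest at -0.18 and MEN1 next at -0.17, while PSIP1 stood at 0.06 and AFF1 at 0.03. No pair of values differed by more than the spike-in SD of 0.22.

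**Figure D2:**
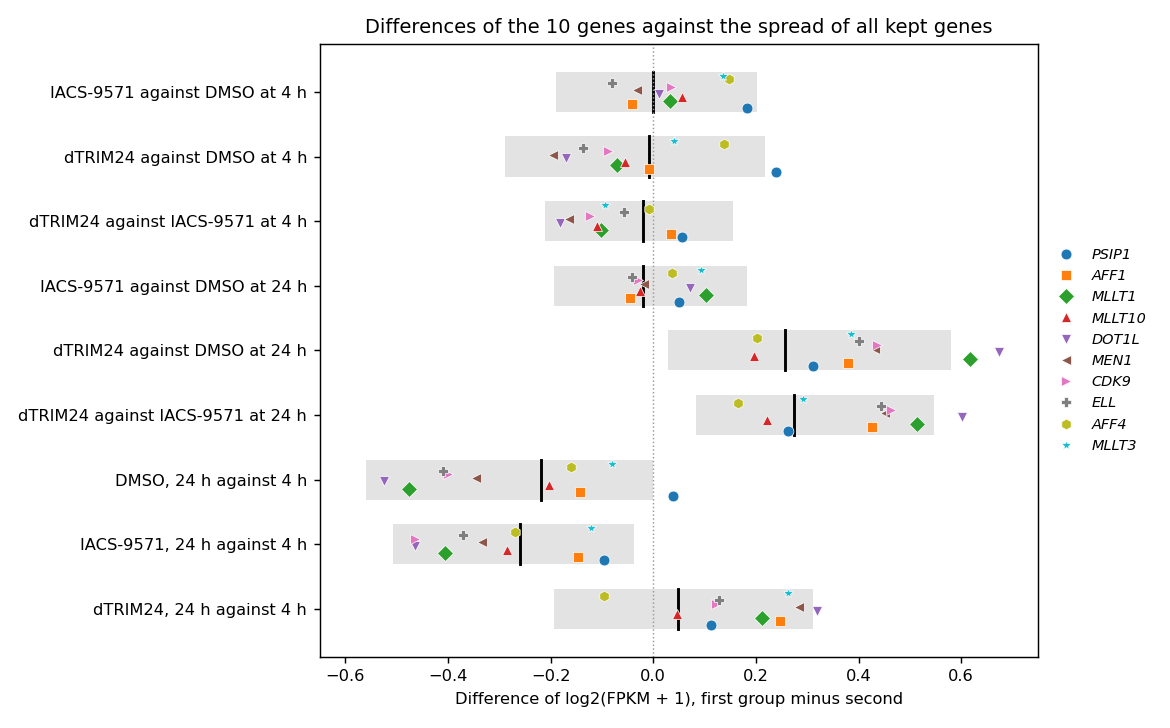
Differences of log2(FPKM + 1) of the 10 genes (symbols) in the 9 comparisons, beside the median (black bar) and the 5th to 95th percentile (grey) of all kept genes. DOT1L (0.67) and MLLT1 (0.62) lie to the right of the grey bar for dTRIM24 against DMSO at 24 h, and PSIP1 (0.04) to its right for DMSO at 24 h against 4 h. PSIP1 (0.24) also lies to its right for dTRIM24 against DMSO at 4 h. DOT1L does so for dTRIM24 against IACS-9571 at 24 h (0.60) and for dTRIM24 at 24 h against 4 h (0.32).

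After 24 h with IACS-9571 the 10 genes lay close to DMSO. None was past 2-fold, beside 0.172% of all kept genes, and 5 lay above and 5 below. Their differences ran from -0.05 (AFF1) to 0.10 (MLLT1), all within the spike-in SD of 0.12. The median was 0.01, against -0.02 for all kept genes.

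After 24 h with dTRIM24 all 10 genes lay above DMSO (8 with the columns centred on their medians), as did 96.8% of all kept genes. None was past 2-fold, beside 0.199% of all kept genes. The median of the 10 was 0.39 and that of all kept genes 0.26. The spike-in median was -0.06. DOT1L stood at 0.67, above 98.0% of kept genes, and MLLT1 at 0.62, above 96.6%. These 2 of 10 were past 1.5-fold higher, beside 4.74% of all kept genes. CDK9 (0.43), MEN1 (0.43), ELL (0.40), MLLT3 (0.38), AFF1 (0.38) and PSIP1 (0.31) followed, and AFF4 (0.20) and MLLT10 (0.20) were below the median of all kept genes. Less that median, DOT1L stood at 0.42, MLLT1 at 0.36, CDK9 and MEN1 at 0.18 each, and MLLT10 at -0.06.

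Against IACS-9571 at 24 h the same dTRIM24 values were set beside other controls. All 10 lay above IACS-9571 (6 with centred columns), as did 98.4% of all kept genes, and 0 were past 2-fold, beside 0.217% of all kept genes. DOT1L at 0.60 was the 1 gene past 1.5-fold higher, beside 3.18% of all kept genes. MLLT1 stood at 0.51, CDK9 at 0.46 and MEN1 at 0.45, and AFF4 was lowest at 0.17. The median of the 10 was 0.43, against 0.28 for all kept genes.

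The change of the dTRIM24 effect with time was widest for DOT1L, which went from -0.17 at 4 h to 0.67 at 24 h. This change of 0.84 compares with a median change of 0.26 over all kept genes, and DOT1L lay above 97.0% of them. MLLT1 changed by 0.69, MEN1 by 0.63, ELL by 0.54 and CDK9 by 0.52, whereas PSIP1 changed by 0.07 and AFF4 by 0.06. DOT1L and the first 4 of these have the most GC-rich transcripts of the 10. With a cubic trend on transcript GC content taken out, DOT1L stood at -0.01 at 4 h and 0.23 at 24 h. MLLT1 then stood at 0.09 and 0.16, MEN1 at -0.07 and 0.04, ELL at -0.003 and -0.003, and CDK9 at -0.003 and 0.09. PSIP1 stood at 0.14 at both times. The part of GC content in these changes was not tested. With IACS-9571 the changes of the 10 lay between -0.13 (PSIP1) and 0.07 (MLLT1), around a median of -0.02 for all kept genes. These changes were not tested.

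Times were also compared within each treatment. In DMSO 9 of 10 genes were lower at 24 h than at 4 h (5 with centred columns), while 5.03% of all kept genes were higher, and 0 were past 2-fold, beside 0.217% of all kept genes. The median of the 10 was -0.27 and that of all -0.22. DOT1L (-0.52), MLLT1 (-0.48), ELL (-0.41), CDK9 (-0.40) and MEN1 (-0.35) were the lowest. PSIP1 stood at 0.04, above 97.1% of kept genes. In IACS-9571 all 10 were lower at 24 h (6 with centred columns), as were 97.0% of all kept genes, with a median of -0.31 against -0.26, and 0 were past 2-fold, beside 0.443% of all kept genes. CDK9 and DOT1L stood at -0.46 each.

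In dTRIM24 9 of 10 genes were higher at 24 h than at 4 h, and 61.4% of all kept genes were. None was past 2-fold, beside 0.670% of all kept genes. The median was 0.17, against 0.05 for all. DOT1L (0.32), MEN1 (0.28), MLLT3 (0.26) and AFF1 (0.25) were the highest, and AFF4 was lower at -0.10. The 3 time comparisons and the 6 compound comparisons share their group means, so they are not separate lines of evidence.

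The 10 genes fall into 2 sets by the GC content of their longest transcript. MEN1, DOT1L, MLLT1, ELL and CDK9 lie between 55.1% and 63.4%, above the median of kept genes (48.0%), and PSIP1, MLLT3, MLLT10, AFF1 and AFF4 between 38.2% and 45.2%. This split was looked at after the values were seen. In DMSO the 5 GC-rich genes differed by -0.52 to -0.35 between 24 h and 4 h and the 5 others by -0.20 to 0.04, with no overlap. With dTRIM24 against DMSO the ranges were 0.40 to 0.67 and 0.20 to 0.38 at 24 h, and -0.20 to -0.07 and -0.055 to 0.24 at 4 h, also with no overlap. The sets did not overlap either for dTRIM24 against IACS-9571 at 24 h and for IACS-9571 with time. They overlapped in the other 4 comparisons, for example IACS-9571 against DMSO at 4 h (-0.08 to 0.03 and -0.04 to 0.18) and dTRIM24 with time (0.12 to 0.32 and -0.10 to 0.26).

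All kept genes ran the same way with GC content. Their median difference in DMSO with time was -0.35 for the 5383 genes above the median GC content and -0.15 for the 5384 others. For dTRIM24 against DMSO at 24 h it was 0.36 and 0.17. The Spearman rho across genes between difference and GC content was -0.71 and 0.61 in these comparisons, and -0.71 for dTRIM24 against DMSO at 4 h. With a cubic trend on GC content taken out, DOT1L stood at 0.23, MLLT3 at 0.23, AFF1 at 0.17, MLLT1 at 0.16, PSIP1 at 0.14 and CDK9 at 0.09 with dTRIM24 at 24 h. MEN1 (0.04), AFF4 (0.02), ELL (0.00) and MLLT10 (-0.01) were then near 0, and the median of the 10 was 0.12. Taking out the trend also removes the shift shared by all kept genes, so values before and after differ by both. The part of GC content in these differences was not tested.

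**Figure D3:**
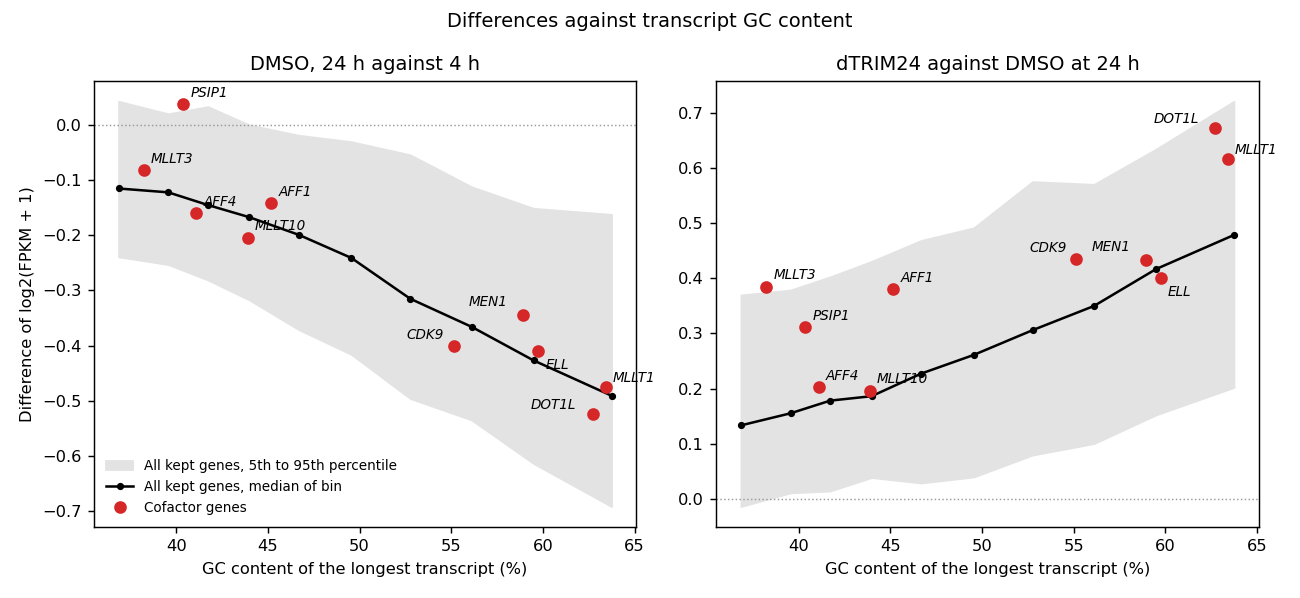
Difference of log2(FPKM + 1) against transcript GC content for DMSO at 24 h against 4 h (left) and dTRIM24 against DMSO at 24 h (right), with all kept genes in 10 bins (line, median; grey, 5th to 95th percentile) and the 10 genes as red points. The GC-rich DOT1L and MLLT1 are among the lowest on the left (-0.52 and -0.48) and the highest on the right (0.67 and 0.62), and PSIP1 lies above the band on the left.

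The starts of 3 genes are shown because they carry the contrast: MLLT1, with the most GC-rich transcript and a wide span, its paralog MLLT3, with the least GC-rich transcript, and PSIP1, the gene that was not lower in DMSO at 24 h. Each sequence is the 200 bases from 250 to 51 before the RefSeq start (build GRCh38.p14, another than the hg19 of the table), 5′ to 3′ on the gene's strand. PSIP1 has more than 1 start, and the upstream one is printed. MLLT1 is on the minus strand at chr19:6280026-6280225, MLLT3 on the minus strand at chr9:20622550-20622749 and PSIP1 on the minus strand at chr9:15511021-15511220. Capitals mark matches, on either strand, to the CCAAT box (CCAAT), the GC box (GGGCGG), the E-box that MYC binds (CACGTG) or the TATA box (TATAAA).
MLLT1: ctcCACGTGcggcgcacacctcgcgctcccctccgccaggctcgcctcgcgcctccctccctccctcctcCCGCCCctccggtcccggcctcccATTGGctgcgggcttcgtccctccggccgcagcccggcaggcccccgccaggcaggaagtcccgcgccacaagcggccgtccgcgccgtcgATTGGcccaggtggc
MLLT3: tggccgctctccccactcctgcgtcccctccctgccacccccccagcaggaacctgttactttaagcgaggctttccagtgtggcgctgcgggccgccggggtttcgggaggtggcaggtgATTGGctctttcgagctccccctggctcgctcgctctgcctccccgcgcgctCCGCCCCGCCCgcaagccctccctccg
PSIP1: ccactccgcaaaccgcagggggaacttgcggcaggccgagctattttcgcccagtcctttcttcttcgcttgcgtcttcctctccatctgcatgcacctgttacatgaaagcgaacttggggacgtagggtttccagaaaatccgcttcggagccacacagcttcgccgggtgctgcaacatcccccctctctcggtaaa

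The window of MLLT1 is 78.0% GC and holds 2 matches to the CCAAT box, 1 to the GC box and 1 to the E-box. That of MLLT3 is 71.0% GC and holds 1 match to the CCAAT box and 2 to the GC box, which overlap. That of PSIP1 is 57.0% GC, equal to the median of 57.0% over 27305 genes, and holds none of the 4 motifs. The window of its other start is 69.5% GC and holds 1 match to the GC box, so the contrast in sequence depends on the start chosen. Of all these windows 28.3% hold the CCAAT box, 34.7% the GC box, 4.68% the E-box and 7.79% the TATA box. The RefSeq starts used here cover 9 of the 10 genes, DOT1L being the other. In the first entry listed, 6 of these 9 hold the GC box, 4 the CCAAT box, 1 the E-box and 0 the TATA box. The windows end 51 bases before the start, so motifs nearer to it are not counted. The 0 therefore does not show that a TATA box is absent. MLLT1 and MLLT3 thus both start in GC-rich DNA although their transcripts lie at opposite ends of the 10 in GC content.

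Ratios between genes of 1 group do not depend on a factor that multiplies its whole column, but quantile normalization or a GC trend taken out can change them. MLLT1 exceeded MLLT3 7.33 times in DMSO, 6.67 times in IACS-9571 and 6.72 times in dTRIM24 at 4 h, and 5.58, 5.54 and 6.26 times at 24 h. The 3 ratios at 24 h were all below the 3 at 4 h. The paralogs lie at opposite ends of the 10 in GC content. In DMSO at 24 h against 4 h MLLT1 stood at -0.48 and MLLT3 at -0.08 as deposited, and at -0.02 and 0.03 with the GC trend taken out. AFF1 exceeded AFF4 4.69, 4.04 and 4.17 times at 4 h and 4.83, 4.53 and 5.38 times at 24 h, highest with dTRIM24 at 24 h. ELL exceeded its paralog ELL2 between 12.0 and 16.3 times, but ELL2 had at most 0.553 FPKM, which makes this ratio imprecise.

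CDK9 works as a pair with a cyclin T. CCNT1 exceeded CCNT2 between 2.68 and 3.02 times, the narrowest span of the 5 ratios (0.17 in log2). The ratio of CDK9 to the sum of both cyclins was 0.852 in DMSO, 0.849 in IACS-9571 and 0.728 in dTRIM24 at 4 h. At 24 h it was 0.706 in DMSO, 0.726 in IACS-9571 and 0.848 in dTRIM24. The kinase was thus lowest relative to its cyclins in dTRIM24 at 4 h and in DMSO and IACS-9571 at 24 h. The CDK9 transcript is 55.1% GC. With the GC trend taken out, CDK9 went from -0.09 to -0.003 for dTRIM24 against DMSO at 4 h. For 24 h against 4 h it went from -0.40 to -0.07 in DMSO and from -0.46 to -0.15 in IACS-9571. The part of GC content in the CDK9 ratio was not tested. Neither ratio has a replicate error.

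**Figure D4:**
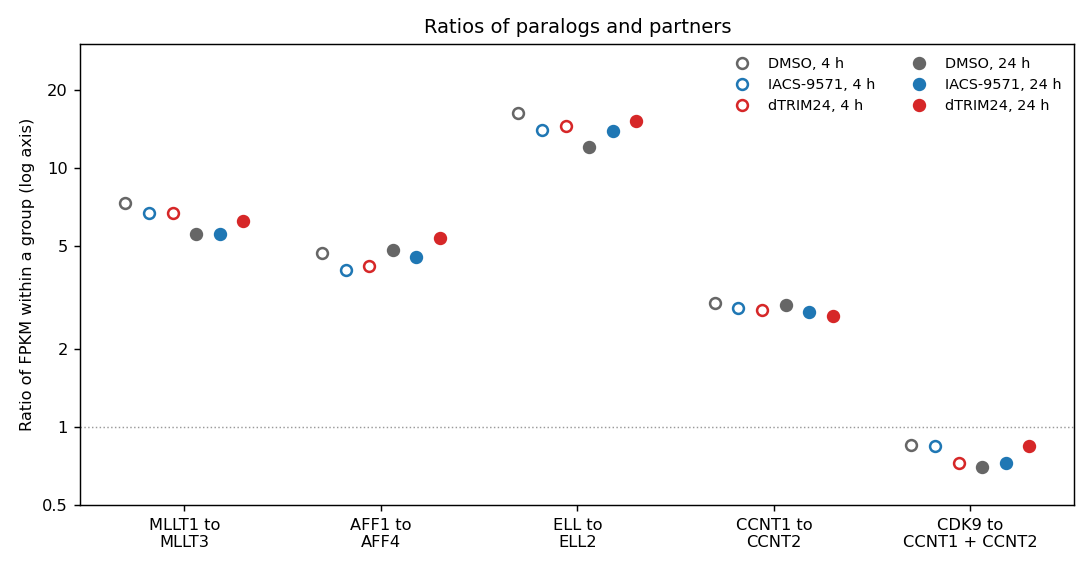
Ratios of FPKM within each group on a log axis, open at 4 h and filled at 24 h, with no error. The MLLT1 to MLLT3 ratio lies between 5.54 and 7.33 and is lower in all filled points than in the open ones; the CDK9 to cyclin T ratio lies between 0.706 and 0.852.

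Other genes of the pathway were read from lists of named genes. None of the kept genes of the 7 lists below was past 2-fold on the log2(FPKM + 1) scale in any of the 9 comparisons, beside 0.172% to 0.688% of all kept genes. The pseudocount of 1 holds low genes such as HEXIM2 under that threshold. With dTRIM24, 47.8% of all kept genes lay above DMSO at 4 h and 96.8% at 24 h, so a list that lies above DMSO as a whole at 24 h is near the background. Of the other elongation complex partners 6 of 8 were kept, ELL2 and AFF2 falling below 1 FPKM. With dTRIM24 all 6 lay above DMSO at 4 h, with a median of 0.07, and at 24 h, with a median of 0.15 that was below the 0.26 of all kept genes. With the GC trend taken out these medians were 0.01 and -0.05. That step also takes out the shift of all kept genes (0.26 at 24 h). A list median below this shift can turn sign through that alone. CCNT2, a cyclin T, stood at 0.17 at 4 h, and EAF2, an ELL-associated factor, at 0.05 at 24 h. The 7SK complex keeps P-TEFb inactive. With dTRIM24 all 4 of its genes lay above DMSO at 24 h (median 0.39, or 0.13 once a GC trend was removed), with HEXIM2, an inhibitor of the kinase, at 1.66 FPKM against 0.778 FPKM and LARP7, the 7SK-binding protein, at 44.8 FPKM against 33.2 FPKM.

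Among the 5 partners and paralogs of the DOT1L complex, MLLT6 (AF17), the paralog of MLLT10, had 12.8 FPKM with dTRIM24 against 8.22 FPKM in DMSO at 24 h (0.58), whereas MLLT10 stood at 0.20. SKP1, a protein of SCF ligases found with DOT1L, stood at 0.14. All 10 kept genes listed for the MLL complex and its partners lay above DMSO in the same comparison, with a median of 0.31. It was -0.01 with the GC trend taken out. JUND and HDGFRP2 in this list are not subunits of the complex. HCFC1, a host cell factor that binds MLL, had 21.9 FPKM against 13.3 FPKM (0.68), and HDGFRP2, the paralog of LEDGF, 33.3 FPKM against 21.4 FPKM (0.62), set beside 0.31 for PSIP1. RBBP5, a core subunit, stood at 0.12. KMT2A, listed as MLL, had 3.12, 3.43 and 3.37 FPKM at 4 h and 2.70, 2.82 and 4.12 FPKM at 24 h in the order DMSO, IACS-9571, dTRIM24. As for MLLT3, its reads can come from the fusion and from the intact gene. KMT2B was not matched, since its older symbols are shared with another gene.

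The PAF1 complex, which MLL binds on transcribed chromatin, had a median of 0.26 over its 6 genes with dTRIM24 at 24 h, equal to that of all kept genes (0.06 with the GC trend taken out), with PAF1 at 0.51 and CDC73 at 0.10. The 10 pausing and elongation factors had a median of 0.44, and 8 of them lay above the median of all kept genes. NELFA, of the pausing complex NELF, had 14.9 FPKM against 9.80 FPKM, and SUPT5H, of DSIF, 47.6 FPKM against 32.6 FPKM. At 4 h 9 of the 10 lay below DMSO, with a median of -0.11, NELFB and SUPT5H being the lowest. With the GC trend taken out the medians of this list were 0.09 at 24 h and -0.01 at 4 h.

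Genes that MLL fusions activate were read too, and 17 of 18 listed were kept. With dTRIM24 12 of the 17 lay above DMSO at 4 h and all 17 at 24 h. Their medians were 0.05 and 0.25, against -0.01 and 0.26 for all kept genes. Once a GC trend was removed they were -0.01 and 0.04. At 24 h MYC (0.62) and HOXA5 (0.51) were the highest, and the survival gene BCL2 (0.01) and the kinase gene CDK6 (0.04) the lowest.

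Likeness of pattern was measured as the root mean square distance of log2(FPKM + 1), centred on each gene's mean, over the 6 groups and 8351 genes with at least 5 FPKM in some group. It was read for the 3 of the 10 genes with the widest range on that scale, DOT1L, MLLT1 and CDK9 (by highest over lowest FPKM, ELL at 1.43 was wider than CDK9 at 1.41). Nearest to DOT1L were SBNO2, ZNF598 and PPP1R9B, at 0.02 each, against a median distance of 0.16. Nearest to MLLT1 were TUT1, TRIM41 and SYVN1, at 0.02 each, against 0.13. Nearest to CDK9 were POM121C, CTBP1 and POM121, at 0.02 each, against 0.11. Reads of POM121 and POM121C, which are close copies, may be split between them, which leaves both uncertain. Within the 10, MLLT1 lay 0.04 from DOT1L and ELL 0.04 from CDK9, while PSIP1 lay 0.21 from DOT1L. With 6 points per gene these distances are descriptions only.

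Strand handling of the counting is not given in the sources used here, so reads where genes overlap cannot be told apart. In GENCODE release 29 DOT1L overlaps AP3D1 and PLEKHJ1 on the other strand. With dTRIM24 against DMSO at 24 h AP3D1 stood at 0.64 and PLEKHJ1 at 0.46, beside 0.67 for DOT1L. In DMSO at 24 h against 4 h they stood at -0.42 and -0.64, beside -0.52. Their part in the DOT1L value was not tested. PSIP1 overlaps SNAPC3, which stood at 0.11 with dTRIM24 at 24 h, and MLLT10 overlaps SKIDA1, at 0.26. A processed copy of MLLT10, MLLT10P1, had at most 0.278 FPKM.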

How the data were processed

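RNA of 18 MOLM-13 samples was measured by RNA sequencing, 3 in each of 6 groups taken from the sample titles. The treatment protocol in the labels speaks of 24 h for all samples, but titles and time points give 4 h or 24 h and were followed. Cell numbers were used to normalize the input and ERCC spike-ins were added, per the labels' protocols. The authors' deposited unit is FPKM. The submitters' processing notes list TopHat2, Cuffnorm and hg19. Tool versions, gene models and the treatment of strand are not stated there. The table holds 1 mean per group, so limma could not be run and no p-value is given.

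Spike-ins (92 rows) and 1721 small RNA rows, recognised by name, were left out, and 11051 genes reaching 1 FPKM in some group were kept. In each column 6066 rows share 1 low value, between 0.0914 and 0.105 FPKM. Differences are of log2(FPKM + 1), computed from the deposited FPKM, with 2-fold as threshold. This scale understates the change of low genes. GC content came from the longest GENCODE release 29 transcript per symbol, for 97.4% of kept genes, and starts from RefSeq. The 10 genes, the lists and the rule for named genes were chosen with earlier results of these data known. By that rule all 10 genes are named, and of each pathway list up to 2 genes with the highest and 2 with the lowest difference, besides the paralogs in the ratios and the nearest patterns. KMT2A and the genes that overlap the 10 were named for their identity. Alternatives were pseudocounts of 0.1 and 0.5, no filter, a higher floor (5 FPKM), centring on the median, quantile normalization, a scale set by the spike-ins, a 1.5-fold threshold and a GC trend taken out. The steps were tested on simulated data. Software was Python 3.11.15 with numpy 2.4.6 and scipy 1.17.1, tables were read with pandas 2.3.3, and plots were drawn with matplotlib 3.10.9.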

Additional observations from a re-analysis of the deposited data

How the results depend on the processing

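For want of replicates a median difference was called moved when it shifted by more than the SD of the spike-in differences. For a ratio, the SD of its own log2 values over the 6 groups was used instead. Pseudocounts of 0.1 and 0.5, no filter, a floor of 5 FPKM (which drops MLLT3) and rescaling to the spike-ins moved none of the 9 medians of the 10 genes, although the spike-in scale turned IACS-9571 against DMSO at 4 h from 0.03 to -0.06 and the floor turned it at 24 h from 0.01 to -0.02. None of these or of the other scalings brought a gene past 2-fold. Median centring, quantile normalization and the GC trend taken out moved 4 medians, given here in that order. For dTRIM24 against DMSO at 24 h 0.39 became 0.10, 0.10 and 0.12, and for dTRIM24 against IACS-9571 at 24 h 0.43 became 0.13, 0.13 and 0.0605. For 24 h against 4 h, -0.27 in DMSO became -0.00663, -0.00397 and -0.0131, and -0.31 in IACS-9571 became -0.0313, -0.0303 and -0.0228. By construction these scalings take out a shift shared by most genes. Rescaling to the spike-ins does not, as the spike-in medians of the columns lay between 29.7 and 31.7 FPKM as deposited. With median centring 8 of 10 genes lay above DMSO with dTRIM24 at 24 h, and 5 of 10 were lower in DMSO at 24 h than at 4 h. Rescaling to the spike-ins put 7 of 10 below DMSO with IACS-9571 at 4 h, where 7 lay above as deposited. At 1.5-fold 2 genes passed for dTRIM24 against DMSO and 1 for dTRIM24 against IACS-9571 at 24 h, and 0 in the other 7 comparisons. A pseudocount of 1 moved the median log2 ratio of MLLT1 to MLLT3 from 2.69 to 2.45, of AFF1 to AFF4 from 2.21 to 2.02, of ELL to ELL2 from 3.83 to 2.48 and of CCNT1 to CCNT2 from 1.51 to 1.35. No paired analysis was possible because the table holds group means, and no replicate could be left out for the same reason. Depth is unknown.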

Other observations

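Genes of less frequent MLL fusion partners, listed by name, were read in the same comparisons. The deposited values hold 13 of them, of which 11 were kept, and none was past 2-fold in the 9 comparisons. With IACS-9571 at 4 h 9 of the 11 lay above DMSO, with a median of 0.05, beside 50.1% of all kept genes. On a scale set by the spike-ins 21.4% of all kept genes lay above, with a median of -0.09, and the list was not read on that scale. MLLT4, which encodes the junction protein afadin, was the highest of them relative to DMSO with both compounds. At 4 h it had 4.94 FPKM in DMSO, 6.23 FPKM with IACS-9571 (0.28) and 5.70 FPKM with dTRIM24 (0.17). At 24 h the values were 4.05, 5.19 (0.30) and 6.50 FPKM (0.57). With dTRIM24 CREBBP, a histone acetyltransferase gene, had 10.3 FPKM against 6.86 FPKM at 24 h, and ABI1, an actin regulator gene, 27.6 FPKM against 25.7 FPKM. The median of the 11 genes with dTRIM24 at 24 h was 0.31, against 0.26 for all kept genes, and 0.04 with the GC trend taken out.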
